A study of Mus musculus with 30 samples.

Results

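The comparison described here set Sp3KO against Sp1_deltaDBD in Flk1+ cells, directly and without a wild type sample. Its members are 4 of the 30 samples of the series, 2 biological replicates of each mutant, and all 14685 genes of the deposited expression table were compared between them. The series holds ESC, Flk1+, HE1, HE2 and progenitor cells of 3 genotypes of the E14 mouse embryonic stem cell (ESC) line, and the other 16 mutant samples serve here only to estimate the spread between replicates and to show in which populations a difference recurred. In Sp1_deltaDBD cells the DNA-binding domain of Sp1 was deleted. In Sp3KO cells Sp3 was knocked out. Each mutant was represented by a single line, and no treatment was applied. Embryoid bodies were grown for about 3 days, for a time that the study set for each cell line, and Flk1+ cells were then purified with magnetic beads and an antibody to Flk1. Genotype, line and culture time therefore cannot be told apart. The question the comparison addresses is where the loss of Sp3 and the loss of Sp1 DNA binding leave Flk1+ cells with different RNA levels.

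Sp1 and Sp3 are zinc finger transcription factors that are made in most cell types. They bind the same GC-rich motif, the GC box, which is common in the promoters of widely expressed genes, and their binding sites overlap broadly. Flk1, encoded by Kdr, is a receptor for vascular endothelial growth factor, and Flk1+ mesoderm gives rise to endothelial and blood cells.

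Sp3 and Sp1 themselves come first, as a check of the labels. Sp3 (chromosome 2, 72936427 to 72980446, minus strand, GRCm38) had 43.3 and 49.3 FPKM in the Sp1_deltaDBD samples and 7.11 and 7.79 FPKM in the Sp3KO samples. FPKM is the number of fragments scaled by transcript length and by the number of mapped fragments. The groups did not overlap, and Sp3 fell 6.14-fold from 46.3 ± 4.25 to 7.45 ± 0.484 FPKM (SD, n = 2). On the scale of log2(FPKM + 0.1), which is used for every difference below, the difference of Sp3KO minus Sp1_deltaDBD was -2.62 (standard error 0.16, limma adjusted p = 3.45e-06). Sp3os, a gene on the opposite strand, overlaps Sp3 by 1023 bases. Sp1 (chromosome 15, 102406143 to 102436404) had 27.2 and 28.9 FPKM in Sp1_deltaDBD and 32.7 and 35.7 FPKM in Sp3KO cells, a difference of 0.28 that did not pass the test (standard error 0.18, adjusted p = 0.399). A value for the whole gene does not check the deletion, which removed part of Sp1.

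Sp4, a further member of the family that binds the same motif, was lower in Sp3KO cells. Its level was 12.2 and 12.7 FPKM in Sp1_deltaDBD and 4.40 and 5.203 FPKM in Sp3KO cells (log2 difference -1.36, standard error 0.24, adjusted p = 0.00517). The samples of the mutants did not overlap, and Sp4 was called lower in all 5 populations, although its call in Flk1+ cells was lost in 2 of the 4 fits that left out 1 Flk1+ sample. Sp2 (log2 difference 0.54, adjusted p = 0.193), Sp5 (1.89, 0.0736) and Sp8 (1.34, 0.107) did not pass the test. Sp5, a target of Wnt signalling, had 9.86 and 3.70 FPKM in Sp1_deltaDBD and 25.1 and 20.5 FPKM in Sp3KO cells. Sp6 was listed at 0 in 3 of the 4 samples. Of the 7 family members measured, 2 were therefore called lower (28.6%, against 3.35% of all genes) and 0 higher. Sp3 was the gene knocked out, so its call was set by the design and this share is not a result about the family. With a pseudocount of 1 or 0.5 in place of 0.1, 2 members were called higher and 2 lower.

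The promoters of 5 genes that the comparison turns on are printed as the 250 bases before the RefSeq start (GRCm38.p6), 5′ to 3′ on the strand of the gene. Capitals mark the core of the GC box, GGGCGG or its reverse CCGCCC. Dmc1 and Aspg stand for the genes highest in Sp3KO cells, Usp26 and Rian for those lowest, and Sp4 is the Sp gene that was lower.
Sp4, chr12:118301441-118301690, minus strand: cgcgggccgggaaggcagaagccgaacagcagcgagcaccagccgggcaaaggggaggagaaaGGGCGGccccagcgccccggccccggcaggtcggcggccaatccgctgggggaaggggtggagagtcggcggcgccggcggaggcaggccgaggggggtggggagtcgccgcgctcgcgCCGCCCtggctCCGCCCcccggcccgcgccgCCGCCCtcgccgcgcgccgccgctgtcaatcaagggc
Dmc1, chr15:79605110-79605359, minus strand: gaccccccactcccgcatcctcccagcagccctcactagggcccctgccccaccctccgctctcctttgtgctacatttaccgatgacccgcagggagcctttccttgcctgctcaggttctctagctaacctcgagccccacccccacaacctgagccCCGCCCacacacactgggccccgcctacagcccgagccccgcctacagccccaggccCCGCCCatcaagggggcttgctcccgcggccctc
Aspg, chr12:112106433-112106682, plus strand: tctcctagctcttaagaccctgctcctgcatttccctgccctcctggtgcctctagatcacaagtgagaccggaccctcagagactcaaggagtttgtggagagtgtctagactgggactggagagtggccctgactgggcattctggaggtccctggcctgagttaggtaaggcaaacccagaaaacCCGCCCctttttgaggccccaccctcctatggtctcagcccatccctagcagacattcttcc
Usp26, chrX:51801234-51801483, minus strand: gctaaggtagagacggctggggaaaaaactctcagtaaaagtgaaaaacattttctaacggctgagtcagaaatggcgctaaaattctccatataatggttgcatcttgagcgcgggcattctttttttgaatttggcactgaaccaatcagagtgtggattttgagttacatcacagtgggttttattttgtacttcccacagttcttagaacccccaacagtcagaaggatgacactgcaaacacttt
Rian, chr12:109603695-109603944, plus strand: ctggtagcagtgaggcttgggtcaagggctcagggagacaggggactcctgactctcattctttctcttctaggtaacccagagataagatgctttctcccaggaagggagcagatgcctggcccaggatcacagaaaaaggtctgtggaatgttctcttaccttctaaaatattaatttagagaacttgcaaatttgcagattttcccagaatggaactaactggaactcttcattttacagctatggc
The Sp4 window held 4 cores, that of Dmc1 2 and that of Aspg 1, while Usp26 and Rian had 0. Among other genes with the largest differences, Scand1 had 2, Tcfl5 3, and Rhox5 and Stag3 0 in windows of the same length. Over all genes with a promoter in the table, 6929 of 11139 (62.2%) held at least 1 core. The share was 61.7% of the 360 such genes called higher in Sp3KO cells and 73.6% of the 379 called lower, so the printed windows do not represent their groups. A match of 6 letters is a description and not a site of binding.

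The cells were checked against markers of the Flk1+ stage. All 12 markers were measured, and each reached at least 3 FPKM in the group where it was higher. Kdr itself had 164.6 and 257.0 FPKM in Sp1_deltaDBD and 171.1 and 189.5 FPKM in Sp3KO cells, so the samples overlapped (adjusted p = 0.736). Of the 12 markers 1 was called higher in Sp3KO cells, Mesp1, and 0 lower. Fibroblast markers, a sign of feeder cells, had 15 of 20 members measured with 0 called, and their summed level was 54.6 and 92.9 FPKM in Sp1_deltaDBD and 63.4 and 76.5 FPKM in Sp3KO cells. Postn and S100a4 were at 0. Markers of ectoderm had 0 of 13 called and those of endoderm 1 of 19 (Spink1, lower). Genes of blood commitment had 2 of 37 called (Fcgr3 and Gfi1, both lower), 19 of these 37 being below 1 FPKM in all 4 samples. The levels behind these calls were low, at most 1.22 FPKM for Spink1, 1.15 for Fcgr3 and 0.875 for Gfi1. With a pseudocount of 1, or among genes with a mean of at least 1 FPKM, 0 blood commitment genes were called. Over all genes 3.25% were called higher and 3.35% lower. In a bulk sample, fewer cells of a type and less RNA per cell cannot be told apart.

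The replicates were not equally close. Between the Sp1_deltaDBD replicates the log2 difference of a gene had a SD of 0.432, and between the Sp3KO replicates one of 0.274. The second Sp1_deltaDBD sample lay further from the Sp3KO samples than the first for 61.4% of all genes and for 71.6% of the genes called. Results without it are given below for some genes and lists only, and the counts of the other lists include it. Depth is unknown, because no read counts go with the values. The spread behind the p-values was estimated from the mutant samples of all populations together, not from the Flk1+ samples alone. The labels do not say whether replicates were separate cultures, so p-values measure the spread between those mutant samples only.

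Of the 14685 genes, 969 (6.6%) were called at a limma adjusted p below 0.05, with 477 (3.25%) higher and 492 (3.35%) lower in Sp3KO cells. The samples of the mutants did not overlap for any of the 969, but this held for 57.8% of all genes, with both Sp3KO samples above in 26.7% and below in 31%. The median difference over all genes was -0.02. A fold of the mean FPKM above 2 with at least 3 FPKM in the higher mutant, a rule with no test, held for 492 genes (3.35%), of which 315 (2.15%) were higher and 177 (1.21%) lower in Sp3KO cells, and 275 of them were also called. The plot of difference against level shows both directions over the whole range of levels. With the 4 Flk1+ samples alone limma called 0 genes, while 3655 had an unadjusted p below 0.05. Without the second Sp1_deltaDBD sample 160 genes were called, without the first or the second Sp3KO sample 202 and 231, and 118 genes were called in all 4 fits that left out 1 sample. Of the 91 genes named by rule and called, 66 kept the call without the first and 27 without the second Sp1_deltaDBD sample, and 29 and 33 without the first and the second Sp3KO sample.

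**Figure D1:**
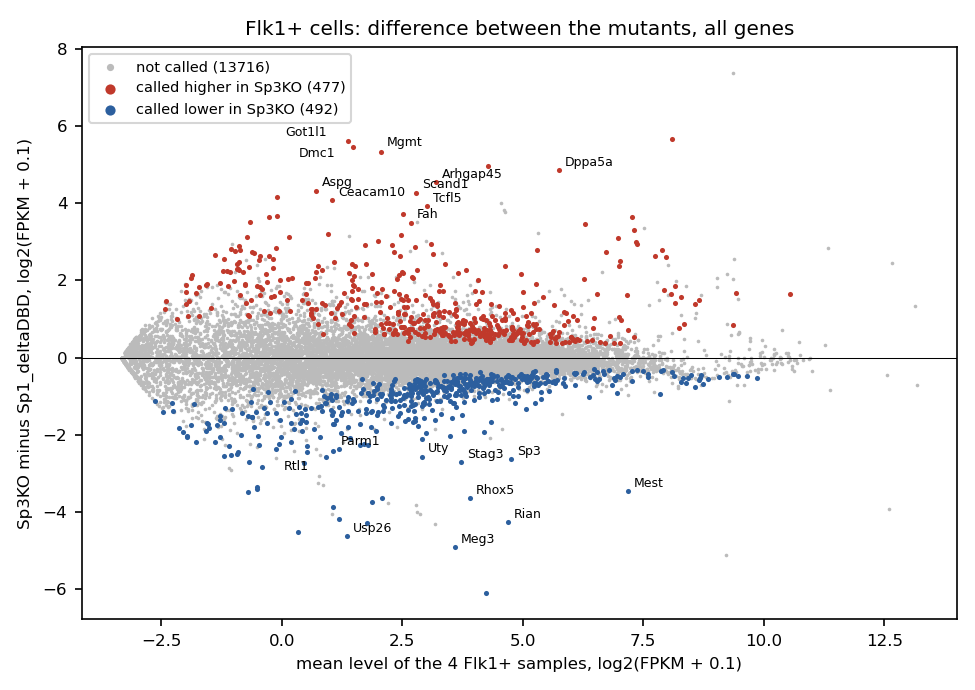
Difference between the mutants (Sp3KO minus Sp1_deltaDBD, vertical axis) against the mean level of the 4 Flk1+ samples (horizontal axis), both on log2(FPKM + 0.1), with 1 point per gene. Red points mark the 477 genes called higher and blue points the 492 called lower in Sp3KO cells, and the 10 named genes with the largest difference in each direction are labelled.

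The genes with the largest positive differences were low in Sp1_deltaDBD cells, several of them close to 0. Mgmt, which repairs alkylated DNA, had 0.203 and 0.0324 FPKM in Sp1_deltaDBD and 7.47 and 8.45 FPKM in Sp3KO cells (log2 difference 5.33, standard error 0.40, adjusted p = 7.23e-06). Dmc1, a recombinase of meiosis, had 0.0254 and 0.0185 against 4.47 and 6.18 FPKM (5.46, adjusted p = 0.000743). Got1l1 was listed at 0 in both Sp1_deltaDBD samples and had 3.74 and 6.22 FPKM in Sp3KO cells (adjusted p = 4.03e-05), and no fold is given against the zeros. The samples of the mutants were well apart for all 3 genes.

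Aspg, an asparaginase, had 0.0479 and 0.0602 FPKM in Sp1_deltaDBD and 2.69 and 3.31 FPKM in Sp3KO cells (log2 difference 4.33, adjusted p = 0.000216). Arhgap45 had 0.196 and 1.72 against 15.0 and 19.2 FPKM (4.54, adjusted p = 0.000555), so that its Sp1_deltaDBD samples also differed from each other. Dppa5a, an RNA-binding protein of stem cells and germ cells, was the most abundant of this group in Sp3KO cells, with 6.36 and 1.88 FPKM in Sp1_deltaDBD and 110.3 and 96.4 FPKM in Sp3KO cells (4.85, adjusted p = 0.00374). The remaining 4 of the 10 genes were Scand1 (log2 difference 4.27), Ceacam10 (4.08), Tcfl5, a transcription factor of the testis (3.93), and Fah, the last enzyme of tyrosine breakdown (3.50). Fah had 1.04 and 0.845 FPKM in Sp1_deltaDBD and 12.3 and 11.1 FPKM in Sp3KO cells. All 10 were called in each of the 10 alternative fits that kept all 4 Flk1+ samples and shared the spread with other populations, and 8 of 10 in all 4 fits that left out 1 sample. The exceptions were Scand1, called in 1 of these 4, and Dppa5a, called in 3. Scand1 overlaps Cnbd2 on the opposite strand by 406 bases.

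Among the genes lower in Sp3KO cells, imprinted and sex-linked genes led. Meg3 (chromosome 12, 109541001 to 109571726) and Rian (109603940 to 109661716) are non-coding RNAs made from the maternal copy of the Dlk1-Dio3 region. Meg3 had 22.0 and 24.1 FPKM in Sp1_deltaDBD and 0.531 and 0.843 FPKM in Sp3KO cells (log2 difference -4.91, standard error 0.74, adjusted p = 0.00219). Rian had 51.5 and 46.3 against 1.97 and 3.02 FPKM (-4.27, adjusted p = 0.00904). Rtl1, a coding gene of the same region that is made from the paternal copy, had 3.39 and 2.84 against 0.383 and 0.497 FPKM (-2.58, adjusted p = 0.0412). All 3 were without overlap, but only Meg3 was called in all 4 fits that left out 1 sample. Rian was called in 2 of them and Rtl1 in 0. Mest (chromosome 6, 30723547 to 30748465), also made from the paternal copy, had 193.1 and 336.2 FPKM in Sp1_deltaDBD and 26.4 and 20.4 FPKM in Sp3KO cells, a fall of 11.3-fold (-3.45, standard error 0.28, adjusted p = 1.75e-05).

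Of 2 further imprinted genes on chromosome 6 that were named after their values were seen, Copg2, which adjoins Mest, had 47.0 and 58.8 FPKM in Sp1_deltaDBD and 20.9 and 25.5 FPKM in Sp3KO cells (log2 difference -1.18, adjusted p = 0.000872), and it overlaps Mest on the opposite strand by 912 bases. Ppp1r9a (4902917 to 5165661), far from Mest, had 4.71 and 8.17 against 2.73 and 3.21 FPKM (-1.04, adjusted p = 0.0203). Over the 36 of 42 imprinted genes measured, 6 were called lower (16.7%, against 3.35% of all genes) and 2 higher (5.56%, against 3.25%), with a median of -0.31. The genes called higher were H19, a non-coding RNA made from the maternal copy, with 4.48 and 13.0 FPKM in Sp1_deltaDBD and 34.8 and 46.9 FPKM in Sp3KO cells (2.39, adjusted p = 0.0349), and Magel2 (1.21, adjusted p = 0.0398). Neither of these 2 was called in any fit that left out 1 sample, whereas 3 to 7 imprinted genes were called lower in those fits.

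Usp26, an X-linked deubiquitinase of the testis, had 5.40 and 4.17 FPKM in Sp1_deltaDBD and 0.0537 and 0.148 FPKM in Sp3KO cells (log2 difference -4.63, standard error 0.30, adjusted p = 3.51e-06). Rhox5, an X-linked homeobox gene, had 32.8 and 22.4 against 2.50 and 1.76 FPKM (-3.63, adjusted p = 4.01e-06). Both were called lower in all 5 populations and in all 4 fits that left out 1 sample.

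The 3 Y-linked genes that were called were all lower in Sp3KO cells but still present. Uty, the Y copy of a histone demethylase gene, had 12.6 and 12.8 FPKM in Sp1_deltaDBD and 2.17 and 1.97 FPKM in Sp3KO cells (log2 difference -2.56, adjusted p = 0.000136). Eif2s3y had 30.3 and 31.4 against 9.15 and 10.02 FPKM (-1.68, standard error 0.12, adjusted p = 5.63e-06), and Ddx3y had 5.37 and 5.99 against 2.04 and 1.91 FPKM (-1.48, adjusted p = 0.00101). All 3 were called in the 5 populations and in all 4 fits that left out 1 sample. Their X-linked relatives, chosen after the Y-linked values were seen, were not called: Kdm6a had a difference of -0.22 (adjusted p = 0.663), Eif2s3x of -0.16 (0.524) and Ddx3x of -0.60 (0.251). On the X chromosome 26 of 519 genes were called lower (5.01%) and 6 higher (1.16%), and the median difference was -0.19.

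**Figure D2:**
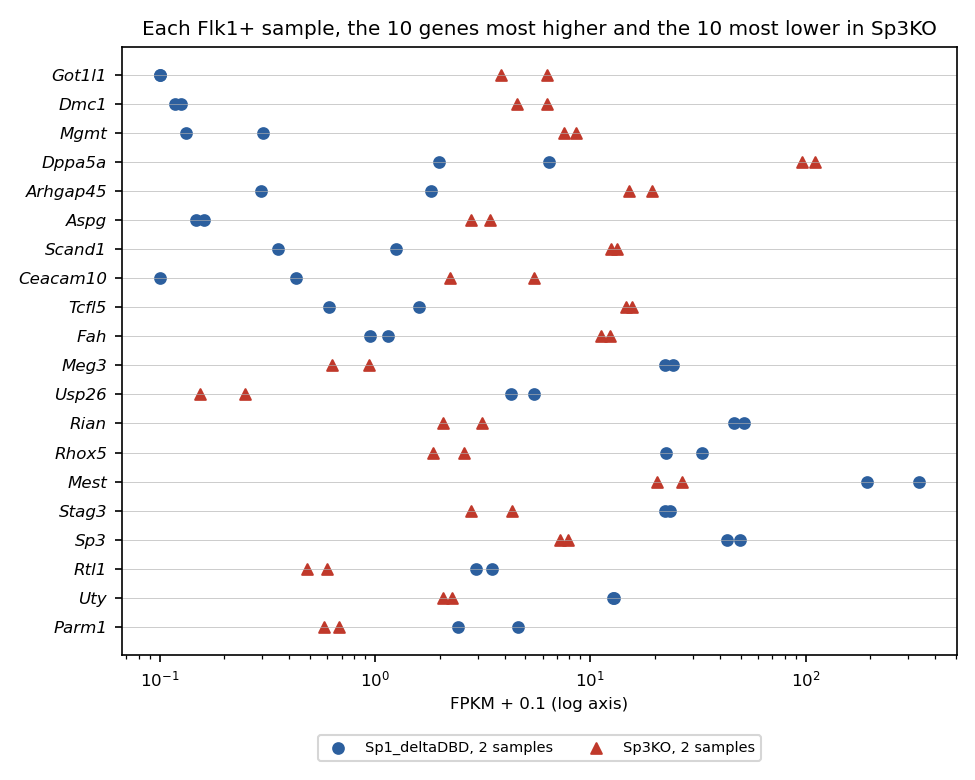
FPKM + 0.1 of each Flk1+ sample on a log axis for the 10 named genes with the largest positive and the 10 with the largest negative difference. Circles are the 2 Sp1_deltaDBD samples and triangles the 2 Sp3KO samples, and the symbols of the mutants do not overlap for any of the 20 genes.

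Genes of the germ line were called in both directions. Stag3, a cohesin subunit of meiosis, had 22.2 and 23.3 FPKM in Sp1_deltaDBD and 2.71 and 4.22 FPKM in Sp3KO cells (log2 difference -2.71, adjusted p = 0.00063), and it was called lower in all 5 populations and in all 4 fits that left out 1 sample. Of 32 genes measured on a germline list, 2 were called higher, Tcfl5 and Sycp3, and 5 lower. These are shares of 6.25% and 15.6%, against 3.25% and 3.35% of all genes, and the median was -0.09. Stag3 and Dmc1 are not on that list, and only 4 of its 5 lower genes are named here. Among germline genes of at least 1 FPKM on average 2 were called higher and 1 lower, with a median of 0.29. Sycp3, a protein of the synaptonemal complex of meiosis, had 2.004 and 1.17 FPKM in Sp1_deltaDBD and 10.6 and 13.0 FPKM in Sp3KO cells (2.85, adjusted p = 0.0239). Zcwpw1, a reader of histone methylation in meiosis, had 11.4 and 8.34 against 2.78 and 3.31 FPKM (-1.66, adjusted p = 0.00765). Tex11 (-3.35), Stk31 (-2.54) and Tex19.1 (-2.26) were called lower as well, from levels of at most 1.45 FPKM, and 18 of the 32 genes were below 1 FPKM in all 4 samples. Sycp3 was called in only 1 of the fits that left out 1 sample, and the call of Tex11 held in all 4.

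Genes of the primitive streak and the earliest mesoderm were mostly higher in Sp3KO cells. Of 38 listed, 33 were measured, and 5 were called higher (15.2%, against 3.25% of all genes) and 0 lower. Their median difference was 0.97, and 29 of the 33 were above 0. Mesp1, a transcription factor of nascent cardiovascular mesoderm, had 39.8 and 22.0 FPKM in Sp1_deltaDBD and 101.4 and 146.2 FPKM in Sp3KO cells (log2 difference 2.04, standard error 0.34, adjusted p = 0.00396). Snai1, a repressor active when cells leave the epithelium, had 13.3 and 9.42 against 42.4 and 59.3 FPKM (2.16, adjusted p = 0.0287). Tbx6, a T-box factor of paraxial mesoderm, had 2.95 and 2.76 against 7.26 and 10.6 FPKM (1.59, adjusted p = 0.0192). Lefty2, an inhibitor of Nodal, had 14.4 and 2.51 FPKM in Sp1_deltaDBD and 23.0 and 27.0 FPKM in Sp3KO cells (2.02, adjusted p = 0.0439), and the call of Pcdh8 (1.71, adjusted p = 0.0398) rested on levels of at most 1.43 FPKM.

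Members that did not pass included T, the founding T-box gene of mesoderm, with 46.1 and 39.6 FPKM in Sp1_deltaDBD and 128.4 and 111.9 FPKM in Sp3KO cells (log2 difference 1.49, adjusted p = 0.18), and Eomes, with 150.9 and 91.9 against 166.2 and 154.5 FPKM (0.44, adjusted p = 0.669). Both Sp3KO samples were above both Sp1_deltaDBD samples for 23 of the 33 genes, against 26.7% of all genes. The second Sp1_deltaDBD sample was below the first for 30 of the 33, and the summed level of the 33 genes was 807.2 and 536.9 FPKM in Sp1_deltaDBD and 1226 and 1228 FPKM in Sp3KO cells. Without the second Sp1_deltaDBD sample 0 of these genes were called and the median was 0.58. Without the first, 12 were called and the median was 1.56, and without one or the other Sp3KO sample 1 and 0 were called. After a correction for GC content and transcript length 0 were called, with a median of 0.89.

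**Figure D3:**
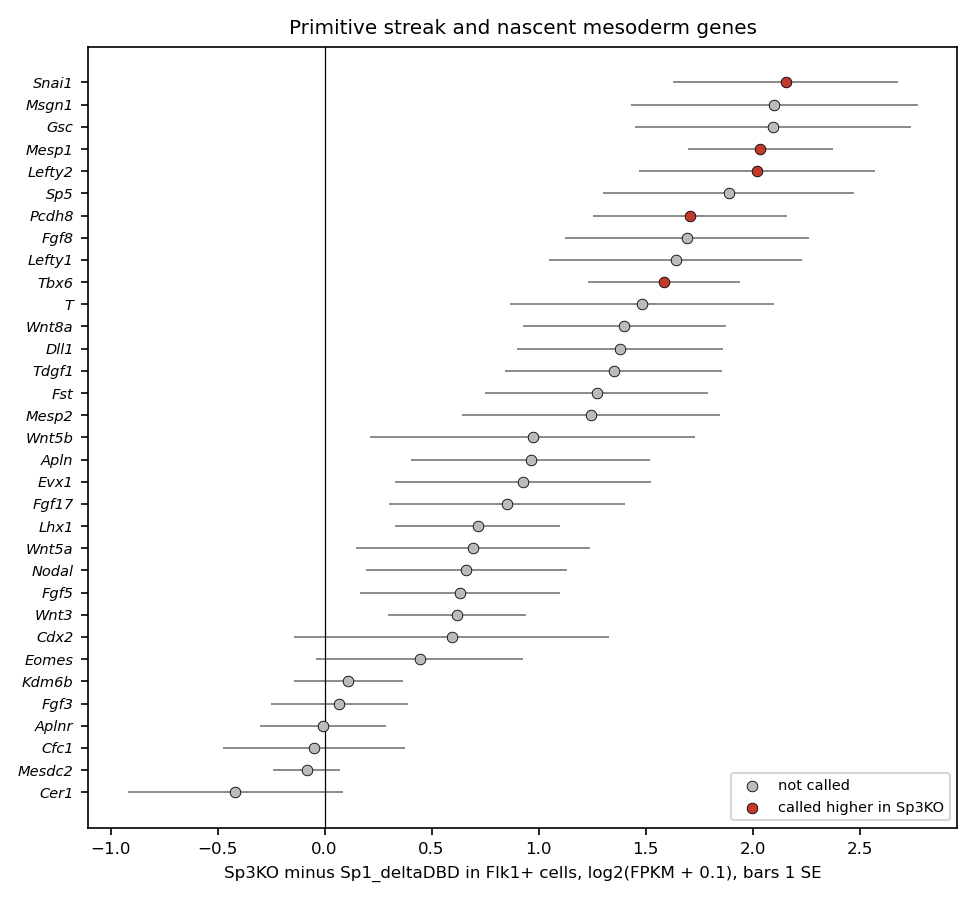
Difference between the mutants in Flk1+ cells (log2(FPKM + 0.1), Sp3KO minus Sp1_deltaDBD, horizontal axis) for the 33 measured genes of the primitive streak and nascent mesoderm, with bars of 1 standard error. The 5 genes called higher are red, and 29 of the 33 points lie to the right of 0.

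Of 36 regulators of the haemangioblast and the endothelium measured, 0 were called higher and 2 lower (5.56%, against 3.35% of all genes), and the median was -0.25. This direction depended on 1 library: without the second Sp1_deltaDBD sample 0 were called and the median was 0.10, and without the first 6 were called lower and the median was -0.57. Without either Sp3KO sample 0 were called. Pecam1, an adhesion molecule of endothelial cells, had 2.82 and 6.75 FPKM in Sp1_deltaDBD and 2.06 and 2.20 FPKM in Sp3KO cells (log2 difference -1.004, adjusted p = 0.0427), and Mef2c, a transcription factor of muscle and endothelium, had at most 1.29 FPKM (-1.43, adjusted p = 0.0325). Each of the 2 was called in only 1 of the 4 fits that left out 1 sample. The calls of this list also changed direction with the settings. With a pseudocount of 1, 2 were called higher and 0 lower, and with a mean of at least 1 FPKM 1 was called in each direction. The medians stayed negative, at -0.19 and -0.28. Etv2, the ETS factor that specifies the haemangioblast, had 43.6 and 25.7 against 96.1 and 90.2 FPKM (1.47, adjusted p = 0.0517). Tal1 had 28.1 and 50.3 FPKM in Sp1_deltaDBD and 28.7 and 29.9 FPKM in Sp3KO cells (-0.36, adjusted p = 0.548). The endothelial cadherin gene Cdh5 had 5.84 and 14.8 against 5.42 and 4.85 FPKM (-0.85, adjusted p = 0.163). For Pecam1, Tal1 and Cdh5 the second Sp1_deltaDBD sample was the highest of the 4.

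Among other mesoderm genes, Bmp5, a bone morphogenetic protein, was lower in Sp3KO cells, with 16.4 and 17.8 FPKM in Sp1_deltaDBD and 6.39 and 5.17 FPKM in Sp3KO cells (log2 difference -1.56, adjusted p = 0.0117). Lateral plate and cardiac genes had 1 called higher, Irx3, and 2 lower, Bmp5 and Mef2c, of 39 measured, with a median of 0.02. These shares of 2.56% and 5.13% stand against 3.25% and 3.35% of all genes. In the paraxial list 1 of 13 was called higher (7.69%, against 3.25%), Tbx6, with a median of 0.94. Pluripotency genes had 3 called higher (7.5%, against 3.25%) and 0 lower of 40. These were Dppa5a, Utf1, which stayed below 1 FPKM in all 4 samples, and Mycn, a growth regulator of the Myc family with 25.2 and 22.1 FPKM in Sp1_deltaDBD and 43.9 and 45.8 FPKM in Sp3KO cells (0.93, adjusted p = 0.00919). Pou5f1, the core factor of the ESC state, had 39.7 and 14.4 against 82.1 and 84.0 FPKM and did not pass (1.79, adjusted p = 0.239).

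Signalling lists held few calls, where 3.25% of all genes were called higher and 3.35% lower. Wnt genes had 0 called higher and 1 lower of 43, the receptor Fzd4 (log2 difference -1.03, adjusted p = 0.0322), with a median of 0.33. In the BMP, Nodal and TGF-beta list 2 of 45 were called higher, Lefty2 and Gdf1, and 1 lower, Bmp5. Gdf1 overlaps Cers1 by 1771 bases on the same strand, so its value is uncertain. FGF and VEGF genes (32 measured) and Notch genes (21 measured) had 0 calls in either direction. These counts depended on the pseudocount. With one of 1, 7 Wnt genes were called higher and 1 lower, and 5 and 1 of the BMP, Nodal and TGF-beta list. For FGF and VEGF genes the counts were then 3 higher and 0 lower, and for Notch genes 2 and 0.

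Immediate early genes, which respond within minutes to growth signals, had 2 called higher and 1 lower of 24, and 0 were called higher without the second Sp1_deltaDBD sample or either Sp3KO sample. Junb had 11.3 and 5.91 FPKM in Sp1_deltaDBD and 26.6 and 27.3 FPKM in Sp3KO cells (log2 difference 1.71, adjusted p = 0.0129), and Ier2 had 24.7 and 18.0 against 46.1 and 44.1 FPKM (1.09, adjusted p = 0.0144). Ier2 was called higher in all 5 populations. The shares of this list called in Flk1+ cells were 8.33% higher and 4.17% lower, against 3.25% and 3.35% of all genes. Klf10 was the member called lower (-0.72, adjusted p = 0.0239), and Klf15, from the related Klf family, was called higher with 4.601 and 3.80 against 12.5 and 12.3 FPKM (1.55, adjusted p = 0.0199). Of the p53 targets and cell cycle inhibitors 3 of 29 were called higher (10.3%, against 3.25% of all genes) and 0 lower, among them Bbc3, which promotes cell death, with 2.52 and 1.56 against 4.97 and 6.11 FPKM (1.43, adjusted p = 0.00915). Another was Phlda3 (0.65, adjusted p = 0.0164), whose difference was -0.10 after the correction for GC content and length. That correction left 0 of the 29 higher and 1 lower, the block left 1 higher, and the 8 ESC and Flk1+ samples gave 1 higher and 2 lower.

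Metabolic genes differed by less. Pfkm, the muscle form of phosphofructokinase in glycolysis, had 17.4 and 17.0 FPKM in Sp1_deltaDBD and 9.99 and 9.49 FPKM in Sp3KO cells (log2 difference -0.81, standard error 0.13, adjusted p = 0.00254), and it was called lower in all 5 populations and in all 4 fits that left out 1 sample. It was the only call among 33 genes of glycolysis and hypoxia (3.03% lower, against 3.35% of all genes). Srebf1, a regulator of lipid synthesis, had 10.2 and 11.8 against 18.8 and 20.1 FPKM (0.82, adjusted p = 0.00788), and with Mvk it made 2 of 33 genes of cholesterol and fatty acid synthesis called higher (6.06%, against 3.25%), with 0 lower. DNA replication genes had 4 called higher (Tk1, Ung, Lig1 and Rrm2, by 0.39 to 0.63) and 1 lower, Chaf1b, of 40, with a median of 0.03. These shares of 10% and 2.5% stand against 3.25% and 3.35% of all genes. With the replicate number as a block 1 of the 40 was called higher and 0 lower, and without the intensity trend 1 higher and 1 lower. Lig1, with an adjusted p of 0.0499, lay just inside the threshold with Plpp3, and P3h1 and Ripk1 lay just outside it.

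Replication-dependent histone genes held many calls. Of 69 measured, 27 (39.1%, against 3.25% of all genes) were called higher in Sp3KO cells and 0 lower, the median difference was 1.57, and 66 of 69 were above 0. Their summed level was 17700 and 12800 FPKM in Sp1_deltaDBD and 34190 and 34140 FPKM in Sp3KO cells, with the mutants apart. Hist1h2af, a gene of histone H2A, had 40.2 and 12.4 FPKM in Sp1_deltaDBD and 270.7 and 291.7 FPKM in Sp3KO cells (log2 difference 3.65, adjusted p = 0.0177). The median of the same genes was 1.47 in ESC, 1.88 in HE1, 1.38 in HE2 and 0.61 in progenitors. Without the second Sp1_deltaDBD sample, or without either Sp3KO sample, 0 of these genes were called, although the medians were 1.21, 1.53 and 1.63. After the correction for GC content and transcript length 23 were called higher and 1 lower, with a median of 0.97. These genes have near-identical copies so single values are uncertain.

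Of 84 cytosolic ribosomal protein genes measured, 10 were called lower (11.9%, against 3.35% of all genes) and 0 higher, 74 did not pass, and the median was -0.14. With the replicate number as a block 1 was called lower and 1 higher, and with the 8 ESC and Flk1+ samples 5 lower and 2 higher. Rpl30 had 550.1 and 542.1 FPKM in Sp1_deltaDBD and 371.5 and 374.6 FPKM in Sp3KO cells (log2 difference -0.55, adjusted p = 0.0275), and Rpl24 had 683.6 and 724.7 against 495.2 and 495.2 FPKM (-0.51, adjusted p = 0.00913). The counts were 3, 1, 0 and 0 in the 4 fits that left out 1 sample. Pseudogene copies can share reads with these genes, and Rps27, singled out after its values were seen, had 10.1 and 6.07 against 1313 and 1313 FPKM without passing the test (adjusted p = 0.0694). Respiratory chain genes had 2 called higher and 2 lower of 92 (2.17% each), and small nucleolar RNAs 3 higher and 1 lower of 108 (2.78% and 0.926%). Over all genes the shares were 3.25% and 3.35%.

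Of 44 proteasome genes 4 were called higher (9.09%, against 3.25% of all genes) and 2 lower (4.55%, against 3.35%). The median of the list was 0.01, and -0.03 without the second Sp1_deltaDBD sample. With the 8 ESC and Flk1+ samples 0 were called higher and 3 lower. Of the 4 genes called higher, 3 lie close together on chromosome 14. Psme1 and Psme2 encode the activator that caps the proteasome in immune responses, and Psmb5 a catalytic subunit. Psme1 had 42.0 and 29.4 FPKM in Sp1_deltaDBD and 89.1 and 71.4 FPKM in Sp3KO cells (log2 difference 1.18, adjusted p = 0.0158), and Psmb5 had 75.1 and 43.7 against 120.5 and 114.5 FPKM (1.03, adjusted p = 0.0393). They belong to a run of 42 genes of at least 3 FPKM from Dad1 to Khnyn (chromosome 14, 54235479 to 55898775, GRCm38), 1.66 Mb long, which was delimited after its values were seen and so has no test. Of the 42 genes 41 were above 0 and 25 were called higher (59.5%, against 3.25% of all genes), with a median of 0.72, a fold of 1.65. Dad1, a subunit of the enzyme that attaches sugars to nascent proteins, had 48.4 and 45.5 FPKM in Sp1_deltaDBD and 95.7 and 88.8 FPKM in Sp3KO cells (0.97, adjusted p = 0.000642). Prmt5, an arginine methyltransferase, had 61.0 and 68.9 against 111.9 and 107.2 FPKM (0.76, adjusted p = 0.000461).

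The genes on either side of the run did not share its difference as a group. The 20 genes before it had a median of 0.04 and the 20 after it one of -0.10, and the rest of chromosome 14 had a median of -0.14 over 288 genes. Still, 3 of the 20 genes before it were called higher (15%, against 3.25% of all genes), Tmem55b (0.54), Pnp2 (0.71) and Zfp219 (0.73), and 0 lower. Of the 20 after it 0 were called. The median of the run was also positive in the other populations, at 0.59 in ESC, 0.81 in HE1, 0.73 in HE2 and 0.82 in progenitors. Without the second Sp1_deltaDBD sample 7 of the 42 genes were called, and without the first or the second Sp3KO sample 7 and 12.

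**Figure D4:**
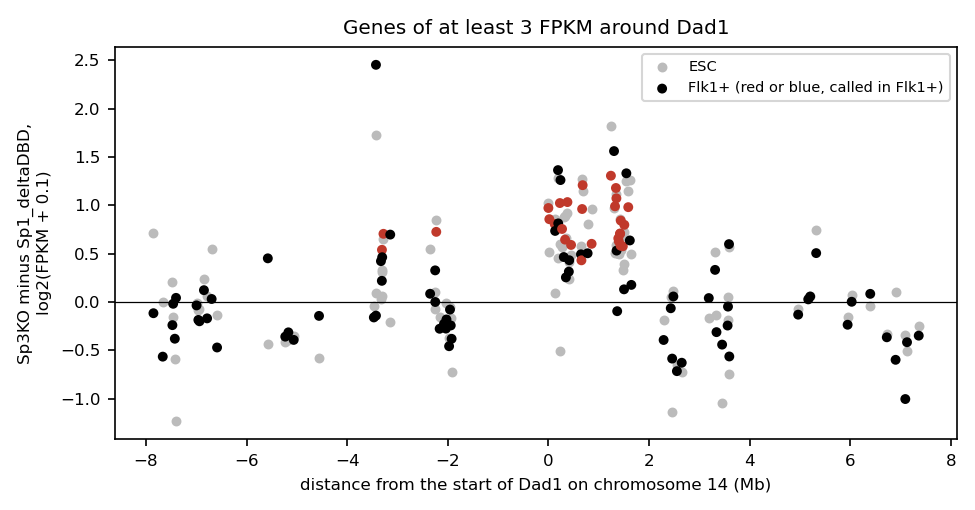
Difference between the mutants (log2(FPKM + 0.1), Sp3KO minus Sp1_deltaDBD, vertical axis) against the distance from the start of Dad1 on chromosome 14 (Mb), for genes of at least 3 FPKM. Black points are Flk1+ cells, red ones called in Flk1+ cells, and grey points ESC, and 41 of the 42 genes of the run stand above 0 in each, with medians of 0.72 and 0.59, while the 20 genes before and the 20 after have Flk1+ medians of 0.04 and -0.10.

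The differences followed the base composition of the transcripts. Across 9783 genes of at least 3 FPKM the Spearman correlation of GC content with the difference was 0.489, as a description over genes that share the 4 libraries. The median GC content was 56.2% for genes called higher, 44.6% for genes called lower and 49.5% for all. In the fifth of the genes with the lowest GC content 6 were called higher and 166 lower, and in the fifth with the highest 205 and 17. The same correlation lay between 0.338 and 0.558 in the other populations. A fit corrected for GC content and transcript length called 837 genes, 589 of them among the 969, and in it 60 of the 91 called genes that have been named by rule kept their call. Sp3, Mgmt, Mest and others were among those that kept it, Rtl1 being the exception among the 20 with the largest differences. How far the GC content of the libraries enters the remaining calls was not tested.

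Of the 969 genes called in Flk1+ cells, 198 were also called in the same direction in all 4 other populations, 80 higher and 118 lower, and 201 were called in Flk1+ cells alone. The number of genes called was 1317 (8.97%) for ESC, 1962 (13.4%) for HE1, 2215 (15.1%) for HE2 and 1640 (11.2%) for progenitors. The share of the Flk1+ calls that recurred was 44.3% in ESC, 57% in HE1, 59.3% in HE2 and 45.1% in progenitors, and these were 32.6%, 28.1%, 26% and 26.6% of the calls of the respective population. A recurring call had the same direction for 429 of 429 genes in ESC, 549 of 552 in HE1, 573 of 575 in HE2 and 435 of 437 in progenitors. Of the 10 named genes with the largest negative differences 6 recurred in all 5 populations, and of the 10 with the largest positive differences 1 did, Got1l1. The 6 were Sp3, Usp26, Rhox5, Mest, Stag3 and Uty, which were thus called lower in undifferentiated ESC as well.

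The differences were also compared between populations. A test of the Flk1+ difference against the ESC difference called 38 genes (0.259%), with the Flk1+ difference above for 20 (0.136%) and below for 18 (0.123%). The test against HE1 called 28 (0.191%), 12 above (0.0817%) and 16 below (0.109%), and that against HE2 37 (0.252%), 25 above (0.17%) and 12 below (0.0817%). Against progenitors 51 genes were called (0.347%), 36 above (0.245%) and 15 below (0.102%). In ESC Mgmt had 9.79 and 4.11 FPKM in Sp1_deltaDBD and 10.7 and 12.1 FPKM in Sp3KO cells. The ESC levels of the mutants were thus far closer than those in Flk1+ cells, and the Flk1+ difference exceeded that in ESC by 4.50 (adjusted p = 0.00382). Rhox5 went the other way, with 324.7 and 331.0 against 115.9 and 103.4 FPKM in ESC, and its Flk1+ difference was more negative by 2.05 (adjusted p = 0.0334). With the replicate number as a block these tests called 0, 1, 0 and 5 genes, and with a pseudocount of 1 they called 164, 86, 72 and 184.

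**Figure D5:**
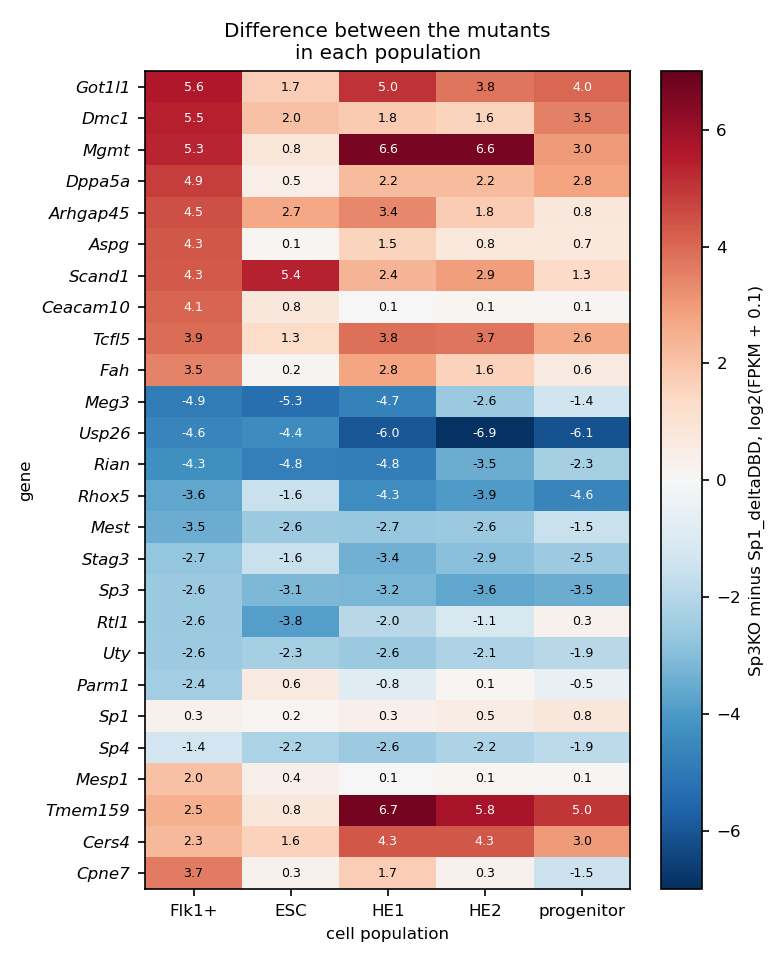
Difference between the mutants (log2(FPKM + 0.1), Sp3KO minus Sp1_deltaDBD) in each of the 5 populations for named genes, with red for higher and blue for lower in Sp3KO cells. Sp3, Usp26, Mest and Uty are blue in every column, whereas Mgmt is 5.33 in Flk1+ cells and 0.83 in ESC and the values of Mesp1 outside Flk1+ cells, where it is at or near the lowest value of each sample, reflect the pseudocount.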

How the data were processed

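RNA of 30 samples was sequenced after ribosomal RNA depletion with a stranded total RNA kit. Per the submitters' notes, reads were aligned to mm10 with HISAT2 2.1.0 and a FPKM value per gene was calculated with StringTie 1.3.3. The authors dropped genes that never exceeded 1 FPKM and then applied quantile normalisation, and the deposited values are FPKM after both, with a median of 7.19 in every sample. The gene annotation is not given in the sources used here, and the depth is unknown. Quantile normalisation gives all samples 1 distribution, so a difference in total RNA cannot be seen.

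The 20 mutant samples (10 groups, by the population and genotype in the labels) were fitted as group means on log2(FPKM + 0.1). The fit used limma 3.58.1 under R 4.3.3 and its empirical Bayes step with the trend option (10 residual and 3.63 prior degrees of freedom). This scale understates changes of low genes. Two-sided p-values were adjusted after Benjamini and Hochberg over 14685 genes, and genes below 0.05 were called. An exact permutation test of 2 against 2 samples cannot go below 0.333. Tests of the Flk1+ difference against that of another population came from the same fit. WT samples (10) entered only 1 alternative.

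Positions, GC content and the longest transcript came from GENCODE M21 (14559 genes matched, 126 not), and promoters from RefSeq (GRCm38.p6). Named genes were the Sp family, the 10 genes called with the largest difference in each direction (at least 3 FPKM in the higher group, no overlap, no predicted, small RNA, histone or ribosomal gene), up to 4 called members per direction of 35 gene lists, and 3 genes per direction of each test between populations. The comparison and the lists were chosen with earlier results of these data known.

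In simulated data of 14685 genes (10 draws) the fit called 68.8% of 100 genes changed by 1 and 94.4% of 100 changed by 2 on the log2 scale, and 5.17% of its calls were unchanged genes. Calculations used Python 3.11.15, numpy 2.4.6, pandas 2.3.3, scipy 1.17.1 and matplotlib 3.10.9. Alternatives were other pseudocounts, a minimum level, other sample sets, a replicate block, chromosome medians, a GC and length correction, no intensity trend, median centring and leaving out each Flk1+ sample.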

Additional observations from a re-analysis of the deposited data

Results flagged for a closer look

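The following genes had a difference between the mutants in Flk1+ cells that was unlike the difference in another population, by limma's test of the difference itself with Benjamini-Hochberg adjustment over all genes. Values are the Flk1+ difference minus the difference in the other population on the log2(FPKM + 0.1) scale. Against ESC, Flk1+ cells stood above by 4.50 for Mgmt (adjusted p = 0.00382), 4.18 for Aspg (0.0201), 3.89 for Got1l1 (0.0402) and 3.37 for Cpne7 (0.0107), a gene of the copine family of membrane-binding proteins. They stood below by -3.46 for Gpx2 (0.00382), -3.26 for Itpka (0.0339), -2.99 for Crxos (0.0402) and -2.05 for Rhox5 (0.0334). Gpx2, a glutathione peroxidase, and Crxos were listed at 0 in all 4 Flk1+ samples, while Sp3KO ESC had 4.87 and 3.62 FPKM of Gpx2 and Sp1_deltaDBD ESC 0.198 and 0.412 FPKM.

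Against HE1, the values were 2.41 for Plscr2 (adjusted p = 0.0363), 2.24 for Gadd45b (0.045), 2.09 for Igfbp3 (0.045), -4.20 for Tmem159 (0.000699), -3.59 for Atp2a3 (0.0292) and -3.41 for Gfi1b (0.045). Gfi1b, a repressor of endothelial genes in blood commitment, had 1.13 and 3.61 FPKM in Sp1_deltaDBD and 0.551 and 1.47 FPKM in Sp3KO Flk1+ cells, but 1.04 and 0.797 against 4.73 and 5.24 FPKM in HE1. Gadd45b, a growth arrest and DNA damage gene, had 1.36 and 1.37 against 2.57 and 3.77 FPKM in Flk1+ cells and 4.22 and 4.48 against 2.07 and 1.87 FPKM in HE1, so its direction differed. Tmem159, with 0.439 and 0.647 FPKM in Sp1_deltaDBD and 3.67 and 3.27 FPKM in Sp3KO Flk1+ cells, was at the lowest value of the sample in both Sp1_deltaDBD HE1 samples.

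Against HE2, the values were 4.20 for Rgs18 (adjusted p = 0.0383), 4.19 for Olfr178 (0.0344), 3.58 for Aspg (0.0435), 3.34 for Cpne7 (0.013), 2.29 for Usp26 (0.0461), -3.29 for Tmem159 (0.00563), -2.06 for Impa2 (0.00563) and -2.05 for Cers4 (0.0482). Cers4, a ceramide synthase, was called higher in Sp3KO cells of all 5 populations, with 1.90 and 2.71 against 11.4 and 11.3 FPKM in Flk1+ cells.

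Against progenitor cells, the values were 7.28 for Hbb-bt (adjusted p = 0.000199), 5.17 for Cpne7 (0.000243), 5.004 for Psmb8 (0.032), 3.99 for Ceacam10 (0.0454), 3.60 for Aspg (0.0336), -2.54 for Tmem159 (0.0127), -2.41 for Cd59a (0.0409) and -1.80 for Igf2bp2 (0.0027). Hbb-bt, an adult beta globin gene, was listed at 0 in all 4 Flk1+ samples. In progenitor cells it had 22.8 and 13.7 FPKM in Sp1_deltaDBD and the lowest value of the sample in both Sp3KO samples. Cpne7 had 0.0311 and 0.0136 FPKM in Sp1_deltaDBD and 1.27 and 1.63 FPKM in Sp3KO Flk1+ cells, and 40.6 and 65.4 against 13.9 and 23.4 FPKM in progenitor cells. Where a group is at 0 or at the lowest value of its samples, as for Got1l1 or Tmem159, the value depends on the pseudocount. Gpx2, Crxos, Rgs18 and Hbb-bt were at 0 in all 4 Flk1+ samples, Plscr2 was at most 0.0195, Itpka at most 0.127 and Olfr178 at most 0.259 FPKM there, so these values give the difference in the other population with little or no Flk1+ expression to compare.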

How the results depend on the processing

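The 969 calls became 0 with the 4 Flk1+ samples alone (3655 at an unadjusted p below 0.05), 160 to 817 when 1 Flk1+ sample was left out, and between 799 and 1128 with the other alternatives apart from the block. The lone sample left in a group was assumed to vary like the other groups. Whether the replicate numbers pair the samples of the mutants is not known. The deviations of same-numbered samples correlated at 0.184 in Flk1+ cells and between -0.03 and 0.09 in the other populations. With 2 pairs in each population these values cannot decide it. With the replicate number as a block 567 genes were called, 520 of them among the 969, and the tests against ESC, HE1, HE2 and progenitor cells called 0, 1, 0 and 5 genes. These tests called 164, 86, 72 and 184 genes with a pseudocount of 1, and 11 to 42, 1 to 60, 9 to 43 and 12 to 83 when 1 Flk1+ sample was left out. With a mean of at least 1 FPKM they called 20 for ESC, 8 for HE2 and 13 for progenitor cells, and with all 30 samples 64 for HE1. A fold above 2 held for 1130 genes with no minimum level, for 247 when required in all 4 pairs of samples, and for 383 to 784 without 1 sample. With a pseudocount of 1, 54.4% of the calls were higher in Sp3KO cells, against 49.2%. Phlda3 reversed, to -0.10 after the GC and length correction (adjusted p = 0.799). Of the 91 named genes called, 84 kept the call with a pseudocount of 1, 59 with the block, 60 with the GC and length correction, 58 with 8 ESC and Flk1+ samples, and 27 without the second Sp1_deltaDBD sample. The causes of these changes were not tested. Same-numbered Sp1_deltaDBD samples of different populations deviated together (0.613 between HE1 and HE2, 0.333 between Flk1+ cells and HE1), so there are fewer independent samples than the fit assumes. Depth, being unknown, limits the lowest values to an unknown extent.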

Other observations

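Other gene lists held few calls by number in Flk1+ cells, but some shares exceeded those of all genes (3.25% higher, 3.35% lower). DNA methylation enzymes and related repair genes had 2 of 15 called higher (13.3%), Mgmt and Gadd45b, and 0 lower, with a median of 0.08. Dnmt3b had 65.6 and 69.3 FPKM in Sp1_deltaDBD and 71.8 and 69.6 FPKM in Sp3KO cells (log2 difference 0.07, limma adjusted p = 0.91). Glutathione S-transferases had 2 of 21 called higher (9.52%), Gsto1 (0.91, adjusted p = 0.0496) and Gsta4 (0.69, adjusted p = 0.0337), and 0 lower. Without the intensity trend 0 of these 21 were called. Epithelial to mesenchymal transition genes had 2 of 30 called higher (6.67%), Snai1 and the fibronectin receptor subunit Itga5. Itga5 had 24.6 and 21.04 FPKM in Sp1_deltaDBD and 31.8 and 31.6 FPKM in Sp3KO cells (0.48, adjusted p = 0.0348). With the replicate number as a block, or after the GC and length correction, 0 of these 30 were called. Hox genes had 0 of 22 called, 18 of them below 1 FPKM in all 4 samples. Trophoblast genes had 1 called higher, H19, and 1 lower, Rhox5, of 15 (6.67% each), and genes of the integrated stress response 1 higher, Sesn2, of 27 (3.7%).

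Ndufv3, a subunit of respiratory complex I, had 82.6 and 85.3 FPKM in Sp1_deltaDBD and 47.2 and 56.4 FPKM in Sp3KO cells (log2 difference -0.70, adjusted p = 0.00791) and was called lower in all 5 populations. Psmc6, an ATPase of the proteasome on chromosome 14, had 139.4 and 149.6 against 94.3 and 97.6 FPKM (-0.59, adjusted p = 0.00772), the opposite direction to Psme1, Psme2 and Psmb5 on the same chromosome. By chromosome, the share of genes called higher was 5.77% on chromosome 7, 7.36% on chromosome 14 and 5.38% on chromosome 13, against 3.25% overall. The share called lower was 1.64%, 4.46% and 4.48%, against 3.35% of all genes. Of the 38 genes called higher on chromosome 14, 25 belong to the run from Dad1 to Khnyn. Those on chromosome 13 include histone genes counted above, such as Hist1h2ao and Hist1h2af. The shares of these 2 chromosomes are therefore not separate from those results.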
